A study of Mus musculus with 2 samples.

Results

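The proteasome is the barrel-shaped protease that degrades ubiquitin-tagged proteins and cuts the peptides that MHC class I molecules display. Its 20S core is built of α and β rings, and the β ring carries the 3 catalytic subunits encoded by Psmb5, Psmb6 and Psmb7. In immune cells, and after interferon-γ, newly built cores take Psmb8, Psmb9 and Psmb10 in their place, which gives the immunoproteasome, and the activator PA28 (Psme1 and Psme2) can cap the core. The 19S particle recognises, unfolds and threads substrates into the core through a ring of ATPases encoded by the Psmc genes. Glucocorticoids such as prednisolone restrain inflammatory and interferon-driven transcription in T cells.

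The genes described are all mouse symbols on the array that begin with Psma, Psmb, Psmc, Psmd or Psme, found through the transcript accessions of the probes and RefSeq. There were 45 such genes with 69 probes among 23462 named genes. They comprised 7 α-ring genes, 7 constitutive β-ring genes, 6 ATPases and 11 non-ATPase subunits of the 19S particle, 3 assembly chaperones, 2 further activators, 2 tissue-restricted subunits, and 4 of the 5 immunoproteasome and PA28 genes. The remaining 3, Psmc3ip, Psme3ip1 and Psme2b, carry the prefix without being standard subunits. No probe was named Psme2. The rule used names only and no measured value, but earlier results of these data were known when it was chosen.

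Both cultures began with naive CD8 T cells of C57BL/6 spleens. One culture received prednisolone at 1 µM and the other vehicle for 2 days, during which immobilised anti-TCR-β (3 µg/ml) and anti-CD28 (1 µg/ml) stimulated the cells with interleukin-2 (10 ng/ml) present. A new plate with interleukin-2 followed for 3 days, and total RNA came from day 5. Both arrays shared a slide and a scan, per the file headers. There was 1 array per condition, so no difference was tested between cultures and no p-value exists. The labels do not give the animals' age or how many animals each culture came from.

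On both arrays 53.5% of the spots were well above background, and no spot was saturated. All 10 CD8 T cell marker genes with a probe, Cd8a and Cd3e among them, were well above background in both cultures. Values below are processed intensities, or log2 differences (prednisolone minus vehicle) after each array was scaled to its 75th percentile, which was 387 with prednisolone and 400.4 with vehicle. The ± is the technical error of the scanner software for the 2 spots of a probe, and leaves out the spread between cultures. Where several probes or genes are combined, it is computed from their errors as if these were independent. It is therefore smaller for genes averaged over several probes. For each measured probe of the genes described it was near 0.20, so it hardly differed from gene to gene. Of the 45 genes, 42 were well above background on both arrays with a usable spot. Psmb10 had only a spot with a background flag, Psmb11 (the thymus-specific catalytic subunit) had only a flagged spot at background, and both probes of Psma8 (the testis-specific α subunit) were below the limit on both arrays.

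With prednisolone the 3 measured immunoproteasome and PA28 genes were lower, while the 19S genes were mostly higher and the constitutive 20S genes lay near 0. The median log2 difference was −0.29 for Psmb8, Psmb9 and Psme1, 0.63 for the 17 genes of the 19S particle and 0.10 for the 14 constitutive genes of the 20S core, beside 0.0014 for all 11968 genes measured on both arrays. Of the 42 members 32 lay above 0, where 50.1% of all genes did, and 10 lay below, where 49.9% of all genes did. A log2 difference of at least 0.5 upward was seen for 12 members, against 17.4% of all genes, and 9 of those 12 belonged to the 19S particle. The same size downward was seen for 1 member, Psmb9, against 18.2% of all genes. The 0.5 limit and the split into core and 19S genes were chosen after these values were seen. Psmb3, a core gene, lay just under that limit at 0.495. At least 2-fold higher were 2 members, Psmd6 and Psmc5, against 6.86% of all 13129 genes with a value, and no member was 2-fold lower, against 7.81%. The number of members at least 2-fold apart was therefore not above the background share, and 16 of the 17 genes of the 19S particle lay above 0, most of them by less than 2-fold. Among genes of the same range of brightness as the 19S genes, 4492 in number, the median was 0.06. The core genes were brighter, with a median scaled log2 level of 4.67 against 3.42 for the 19S genes. The correlation of brightness and difference was −0.20 across the 17 genes of the 19S particle, 0.02 across the 14 core genes and −0.33 across all 31. These correlations are given as a description because the genes share both arrays.

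**Figure D1:**
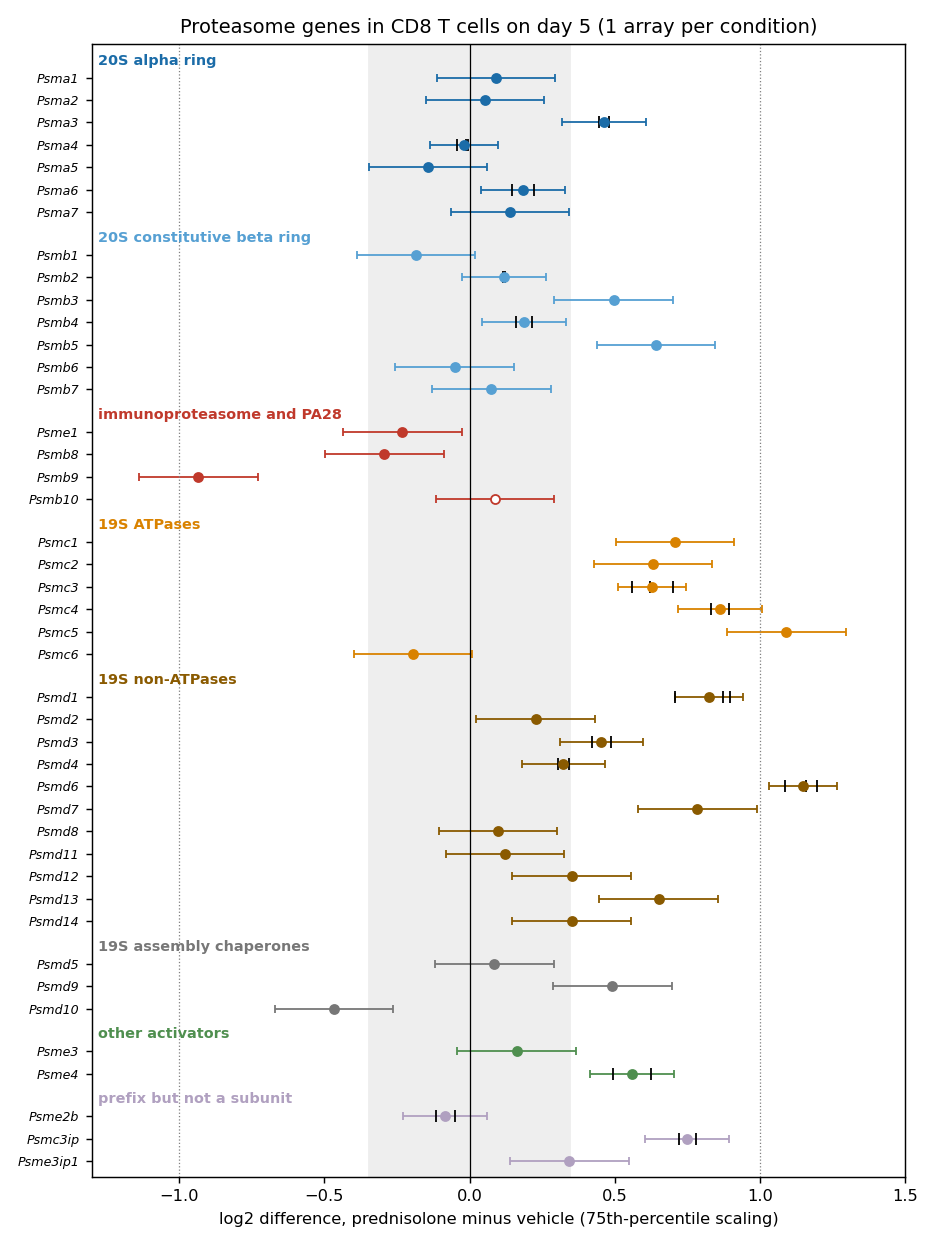
Log2 difference (prednisolone minus vehicle, horizontal axis) of every member with a usable level, grouped by role down the page. Points are gene values, bars the software error, black ticks the single probes of genes with several probes, the open point is Psmb10 from a spot with a background flag, the grey band spans the quartiles of all genes and dotted lines mark 2-fold. The 19S ATPases and non-ATPases sit to the right of 0 except Psmc6, and Psmb9 sits farthest to the left at −0.93.

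Psmb9 encodes the immunoproteasome subunit that replaces Psmb6. Its intensity was 16237 with prednisolone and 32113 with vehicle, which is 1.91-fold lower (−0.93 ± 0.20). Psmb8, the replacement for Psmb5, had 22201 with prednisolone and 28165 with vehicle (−0.29 ± 0.20). Psme1, the α subunit of PA28, had 21125 with prednisolone and 25680.4 with vehicle (−0.23 ± 0.20). Psmb9 thus differed by several times its technical error, and Psmb8 and Psme1 by little more than theirs. Scaling on the spike-in controls moved the median of all genes to 0.24. Measured against that shift the 3 genes kept their place, but their own differences became −0.70 for Psmb9, −0.055 for Psmb8 and 0.0064 for Psme1, so the sign of Psme1 turned.

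Psmb10, the replacement for Psmb7, had 35221 with prednisolone and 34339 with vehicle on a spot whose local background carried an outlier flag on the vehicle array. Kept, it gives 0.086 ± 0.20, a value within its technical error of 0 and opposite in sign to Psmb8 and Psmb9. The median of the 4 genes was then −0.26. Psme2, the partner of Psme1, has no value. The 2 probes named Psme2b, a close copy of Psme2, had 46890.4 and 10250.1 with prednisolone and 52655 and 10988 with vehicle (−0.08 ± 0.14, and 0.15 under spike-in scaling). Whether these probes also bind Psme2 transcripts was not tested, so that value belongs to neither gene with certainty.

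Each immunoproteasome catalytic gene has a constitutive counterpart, and the differences of each pair can be set side by side. Psmb5, the chymotrypsin-like subunit, had 7341 with prednisolone and 4871 with vehicle (0.64 ± 0.20) and was the highest of the 14 constitutive core genes. The difference of Psmb8 minus that of Psmb5 was −0.93 ± 0.29, which is 1.91-fold lower for Psmb8 relative to Psmb5. Psmb6, the caspase-like subunit, had 9452 with prednisolone and 10141 with vehicle (−0.052 ± 0.20), and the difference of Psmb9 minus that of Psmb6 was −0.88 ± 0.29. Psmb7, the trypsin-like subunit, had 4716 with prednisolone and 4636 with vehicle (0.074 ± 0.20), and Psmb10 from its flagged spot lay 0.012 ± 0.29 above it. The Psmb8 and Psmb5 pair and the Psmb9 and Psmb6 pair thus had offsets of similar size, in the first mostly from Psmb5 and in the second from Psmb9, and the offset of the last pair was within its technical error. These offsets are the same under any scaling by 1 constant per array.

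**Figure D2:**
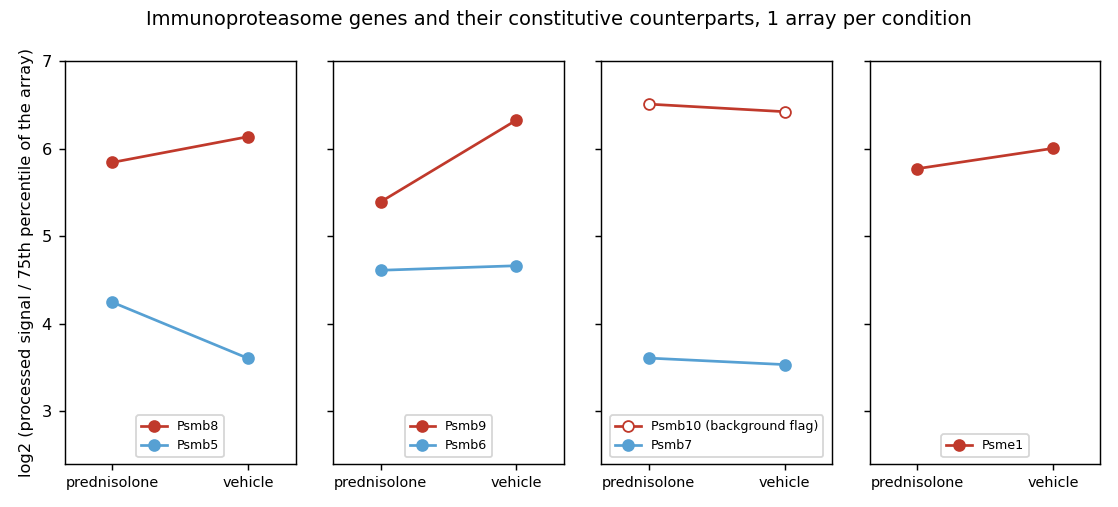
Scaled log2 signal (vertical axis) with prednisolone at left and vehicle at right, 1 array each, for the catalytic pairs and Psme1. Levels of different probes cannot be compared, only the slope of each line: Psmb9 (−0.93) and Psmb5 (0.64) slope most and in opposite directions, and Psmb7 (0.074) and the flagged Psmb10 (0.086) are nearly flat.

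In the mouse genome Psmb9, Tap1, Psmb8 and Tap2 are neighbours in that order, and Tap1 and Tap2 encode the transporter that carries proteasome products into the endoplasmic reticulum. Psmb9 and Tap1 are transcribed away from each other from starts 225 bases apart. Tap1 had 1235 and 6781 on its 2 probes with prednisolone and 3118 and 15433 with vehicle, 2.32-fold lower (−1.21 ± 0.14). Tap2 averaged −0.44 ± 0.20, with a dim probe (15.1 with prednisolone and 25.8 with vehicle) at −0.72 and a bright one (20179.7 with prednisolone and 23225 with vehicle) at −0.15, and was −0.17 after normexp. The divergent pair Psmb9 and Tap1 thus had larger differences than Psmb8 and Tap2 beside it, without a test of that contrast. The promoter windows below (RefSeq, GRCm38.p6, 250 bases before to 50 after the start, 5′ to 3′ on the gene's strand) are shown for the shared Psmb9 and Tap1 interval, for the other lowered genes and for Psmb5. Capitals mark the interval between the Psmb9 and Tap1 starts in Psmb9 (chr17:34187281-34187580, minus strand), a match to the gamma-activated site TTCNNNGAA in Psmb8 (chr17:34197945-34198244, plus strand), a match to the interferon-stimulated response element (GAAA, any 2 bases, GAAA), read on the other strand, in Psme1 (chr14:55578244-55578543, plus strand), and 2 matches to the antioxidant response element core TGANNNNGC in Psmb5 (chr14:54617946-54618245, minus strand).
Psmb9: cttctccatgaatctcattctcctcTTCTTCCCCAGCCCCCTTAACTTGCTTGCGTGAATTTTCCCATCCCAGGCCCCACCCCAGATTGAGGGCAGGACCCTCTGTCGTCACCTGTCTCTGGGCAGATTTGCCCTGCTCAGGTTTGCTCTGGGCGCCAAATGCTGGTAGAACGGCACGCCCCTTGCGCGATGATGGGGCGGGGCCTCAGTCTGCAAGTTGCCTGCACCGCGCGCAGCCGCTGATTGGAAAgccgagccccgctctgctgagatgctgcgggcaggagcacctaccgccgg
Psmb8: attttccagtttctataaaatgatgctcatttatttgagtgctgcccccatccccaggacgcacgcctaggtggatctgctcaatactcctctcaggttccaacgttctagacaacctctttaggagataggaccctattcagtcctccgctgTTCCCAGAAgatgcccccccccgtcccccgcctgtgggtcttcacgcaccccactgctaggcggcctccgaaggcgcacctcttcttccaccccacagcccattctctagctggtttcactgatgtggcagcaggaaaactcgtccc
Psme1: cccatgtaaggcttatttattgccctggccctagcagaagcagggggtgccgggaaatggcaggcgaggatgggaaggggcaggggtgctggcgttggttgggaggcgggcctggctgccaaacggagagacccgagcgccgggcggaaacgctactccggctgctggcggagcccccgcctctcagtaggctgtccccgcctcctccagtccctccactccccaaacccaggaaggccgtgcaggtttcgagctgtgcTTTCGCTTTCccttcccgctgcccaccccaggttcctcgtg
Psmb5: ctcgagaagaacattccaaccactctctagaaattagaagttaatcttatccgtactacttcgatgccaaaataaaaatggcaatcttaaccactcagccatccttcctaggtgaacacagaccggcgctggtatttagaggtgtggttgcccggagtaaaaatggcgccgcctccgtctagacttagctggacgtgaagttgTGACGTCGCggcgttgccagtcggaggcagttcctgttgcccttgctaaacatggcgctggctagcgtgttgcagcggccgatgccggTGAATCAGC

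Both strands of every window were searched, and overlapping matches were counted. The interferon-stimulated response element was found in 1 of 5 immunoproteasome and PA28 genes (Psme1), 1 of 14 genes of the 19S particle and 1 of 11 constitutive core genes with a window, against 3.99% of all 27025 genes. The gamma-activated site was found in Psmb8, in 1 of the 14 and in none of the 11, against 9.55% of all genes. The antioxidant core, which the factor Nrf1 (Nfe2l1) is known to bind in proteasome genes, was found in 3 of the 5 immunoproteasome and PA28 genes (Psmb8, Psmb9 and Psme2), 6 of the 14 genes of the 19S particle and 8 of the 11 of the core, against 45.1% of all genes. A glucocorticoid response element (GNACA, any 3 bases, TGTNC) was found in none of these 3 groups, against 0.536% of all genes, and among the other members Psme2b had a match. A match is a run of letters and not a shown binding site, and a missing match says only that these letters are not in the window.

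Among the α-ring genes, whose products form the gate of the core, 5 of 7 lay above 0 and the range was narrow, with a median of 0.09. Psma3 was highest, with 23401 and 6005 on its 2 probes with prednisolone and 17368 and 4560.1 with vehicle (0.46 ± 0.14). Psma5 was lowest, with 14166 with prednisolone and 16198 with vehicle (−0.14 ± 0.20). None reached 0.5 in either direction, where 17.4% of all genes did upward and 18.2% downward. The constitutive β-ring genes had a median of 0.12, also with 5 of 7 above 0. After Psmb5, the noncatalytic Psmb3 was next, just under the 0.5 limit (0.495 ± 0.20), from 29863 with prednisolone and 21926 with vehicle. Psmb1 was lowest at −0.18 ± 0.20, from 8740.03 with prednisolone and 10283 with vehicle. Under spike-in scaling Psma4, Psma5, Psmb1 and Psmb6 turned from below to above 0.

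The 19S ATPases, which form the unfolding ring, had a median of 0.67. Of the 6, 5 were at least 0.5 higher with prednisolone, against 17.4% of all genes. Psmc5 had 5274 with prednisolone and 2564 with vehicle, 2.13-fold higher (1.09 ± 0.20). Psmc4 had 5881 and 281 on its 2 probes with prednisolone and 3422 and 157 with vehicle (0.86 ± 0.15). Its probes differ in brightness by over an order of magnitude and gave 0.83 and 0.89. Psmc1 had 26372 with prednisolone and 16728 with vehicle (0.71 ± 0.20). Psmc2 had 12673 with prednisolone and 8474 with vehicle (0.63 ± 0.20). Psmc3 was 0.63 ± 0.12 with its 3 probes between 0.56 and 0.70. Psmc6 was the exception in this ring, with 13781 with prednisolone and 16331 with vehicle (−0.20 ± 0.20), a value no larger than its error that lay at 0.04 under spike-in scaling.

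All 11 non-ATPase subunits of the 19S particle lay above 0, with a median of 0.35. Psmd6, a scaffold subunit of the lid, was the highest member of all. Its 3 probes had 11396, 3746 and 1727 with prednisolone and 5558, 1693 and 800.3 with vehicle, 2.21-fold higher (1.15 ± 0.12), and gave between 1.09 and 1.20. Psmd1, the large scaffold of the base, had 9915, 7228 and 1409 with prednisolone and 5604, 4587 and 784 with vehicle (0.82 ± 0.12). Psmd7, the inactive partner of the lid's deubiquitinase, had 4136 with prednisolone and 2486 with vehicle (0.78 ± 0.20). Psmd13, another lid subunit, had 1252 with prednisolone and 825 with vehicle (0.65 ± 0.20). These were the 4 of 11 genes at least 0.5 higher, against 17.4% of all genes.

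The other non-ATPases were closer to 0. Psmd14, the deubiquitinase itself, was 0.35 ± 0.20 and the ubiquitin receptors Psmd4 and Psmd2 were 0.32 ± 0.14 and 0.23 ± 0.20. Psmd3 (0.45 ± 0.14) and Psmd12 (0.35 ± 0.20) lay between, and Psmd11 (0.12 ± 0.20) and Psmd8 (0.10 ± 0.20) were lowest. Psmd6, Psmd8 and Psmd11 all encode lid subunits, so the highest and the lowest non-ATPases came from the same subcomplex.

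**Figure D3:**
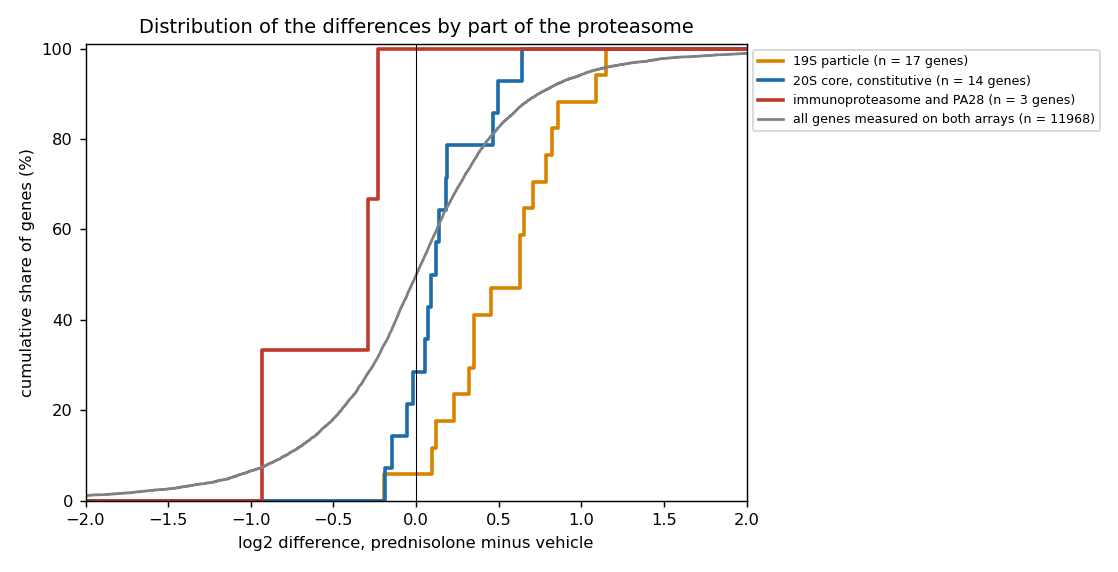
Cumulative share of genes (%) against the log2 difference (prednisolone minus vehicle), with 1 step per gene for the 19S particle, the constitutive 20S core and the measured immunoproteasome and PA28 genes, and the curve of all 11968 measured genes in grey. Up to about its highest genes the 19S curve lies right of the grey one (median 0.63), the core curve rises steeply near 0 (median 0.10) and the 3 immunoproteasome and PA28 genes lie left of 0.

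The chaperones that assemble the 19S base did not share a direction. Psmd9 had 746 with prednisolone and 550 with vehicle (0.49 ± 0.20). Psmd10, which encodes gankyrin, had 2022 with prednisolone and 2894 with vehicle (−0.47 ± 0.20). Psmd5 was 0.08 ± 0.20. Of the activators not tied to the immunoproteasome, Psme4, the gene of PA200, was 0.56 ± 0.14 with probes at 0.63 and 0.49, and Psme3, the nuclear PA28γ, was 0.16 ± 0.20. Psmc3ip, which encodes a meiotic recombination factor that binds Psmc3 and is no subunit, had 487 and 2306 on its probes with prednisolone and 293 and 1450.01 with vehicle (0.75 ± 0.14). Psme3ip1 was 0.34 ± 0.20.

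Several probes were available for 14 of the 42 members. Their differences ranged by 0.06 (median) and at most 0.19 within a gene, and no gene had probes of opposite sign. The spread between spots of 281 probes printed 10 times was smaller still, with a median SD of 0.03. Both describe the 2 hybridizations and not the cultures.

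Other genes of the proteasome system were less uniform. Of 12 measured assembly and accessory genes none was 2-fold apart, against 7.81% lower and 6.86% higher among all genes. Their median was −0.02. Adrm1, a ubiquitin receptor of the 19S base, was 0.80 ± 0.14, and Uchl5, the deubiquitinase it recruits, was 0.76 ± 0.20. Akirin2, a nuclear import adaptor of the proteasome, was lowest at −0.41 ± 0.20. Usp14, the other deubiquitinase of the particle, had probes at 0.14 and −0.65, the second dim at 74.2 with prednisolone and 120.03 with vehicle. Pomp, which matures the core, was 0.30 ± 0.14. Ubiquitin and delivery genes had a median of 0.16 over 13 measured, none 2-fold apart, from Rps27a at −0.16 ± 0.20 to Nploc4, a cofactor of the segregase, at 0.70 ± 0.20.

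The list around Nrf1 had a median of 0.13 over its 6 genes and 1 member at least 2-fold lower, against 7.81% of all genes. Nfe2l1, which encodes Nrf1, the factor known to raise proteasome genes when proteasome activity is short, had 1263 and 39.7 on its probes with prednisolone and 2648 and 92.2 with vehicle (−1.09 ± 0.15). It was −0.85 under spike-in scaling and −0.79 after normexp background correction, within 2-fold in both. Syvn1, an endoplasmic reticulum ubiquitin ligase, was highest at 0.76 ± 0.20. The Nfe2l1 transcript was lower with prednisolone and most 19S genes were higher. Only transcripts were measured, and a part of Nrf1 in the 19S differences was not tested.

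Interferon and NF-κB regulators of the immunoproteasome genes had a median of −0.60, and 5 of 13 measured were at least 2-fold lower and 1 higher, against 7.81% and 6.86% of all genes. Ifng, the gene of interferon-γ, had 71.9 with prednisolone and 524 with vehicle (−2.82 ± 0.21). Irf8, an interferon-regulated transcription factor gene, had 1284 with prednisolone and 5595 with vehicle (−2.07 ± 0.20). Relb, of the noncanonical NF-κB arm, was −1.74 ± 0.15. Stat2 was −1.15 ± 0.20, and −0.92 under spike-in scaling. Nfkb1 was the higher gene, with 2097 with prednisolone and 797 with vehicle (1.45 ± 0.20). Irf1 had only a spot with an outlier flag, which gave −0.70. Transcripts of most of these regulators and of Psmb9 were therefore lower in the same culture, which is a statement on 2 arrays and not on dependence.

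Class I peptide loading genes had a median of −0.25. Of 10 measured, 1 was at least 2-fold lower (Tap1, −0.97 under spike-in scaling) and 1 higher, against 7.81% and 6.86% of all genes. The higher one was Calr, the gene of calreticulin, a chaperone, at 1.08 ± 0.20 from 7518 with prednisolone and 3674 with vehicle. B2m, the light chain of class I molecules, was −0.38 ± 0.20 and H2-D1 was −0.15 ± 0.20.

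**Figure D4:**
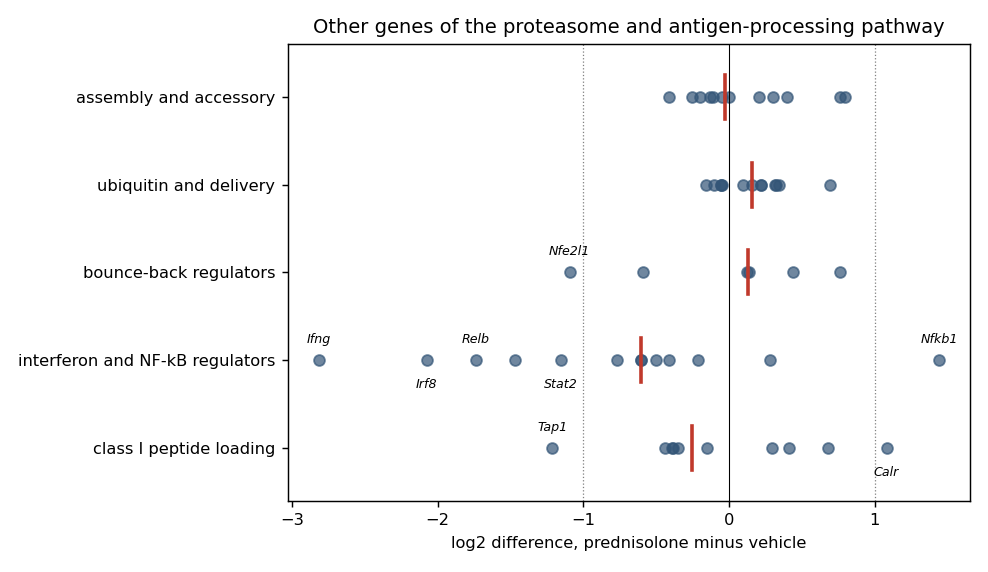
Log2 difference (prednisolone minus vehicle) of the measured genes of 5 lists around the proteasome, 1 point per gene, with a red bar at the list median and names beside those described in the text that were at least 2-fold apart. The interferon and NF-κB regulators reach from Ifng at −2.82 to Nfkb1 at 1.45, with 11 of 13 below 0.

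Immunoproteasome genes are also high in antigen-presenting cells, and the RNA came from whole cultures, in which fewer cells of a type and less RNA per cell cannot be told apart. Summed over the list of 10 myeloid and dendritic cell markers the intensity was 4010.4 with prednisolone and 4654 with vehicle, with 4 of 10 well above background in each. Cd68 was −2.22 ± 0.20 and Cd74 at least 4.61-fold lower (−0.74 on the log2 scale after normexp), whereas Lyz2, Itgax, Adgre1, Fcgr3 and Flt3 were well above background in neither culture. The other markers of this list did not share that direction, with Csf1r at 0.23 ± 0.21, Itgam at 0.018 ± 0.22 and Cd14 at least 1.10-fold higher. The 5 B cell markers summed to 1646 with prednisolone and 1098 with vehicle, with Cd79a and Ms4a1 among those well above background on neither. Cd79b, kept in that sum, had only a spot with an outlier flag, which gave 0.66, and Pax5 was −0.087 ± 0.44. The 4 NK cell markers, of which Ncr1 was well above background in neither culture, summed to 643 with prednisolone and 2946 with vehicle. Most of that sum was Eomes, which CD8 T cells also express, at 542 with prednisolone and 2908 with vehicle, while Klrb1c was 0.067 ± 0.32 and Klra8 was at least 4.51-fold higher (0.81 on the log2 scale after normexp). Sums were 1064 with prednisolone and 1436 with vehicle for the 3 CD4 T cell markers, and 1411 with prednisolone and 96.4 with vehicle for the erythroid markers. Cd4 itself had 656 with prednisolone and 640 with vehicle (0.084 ± 0.20), and Foxp3 had 53.8 and 93.8 (−0.75 ± 0.22). Zbtb7b, the other CD4 T cell marker, had only a spot with an outlier flag, kept in the sum, which gave −0.93. The 10 CD8 T cell markers summed to 345815 with prednisolone and 417469 with vehicle. The part of these lists in the Psmb9 difference was not tested.

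**Figure D5:**
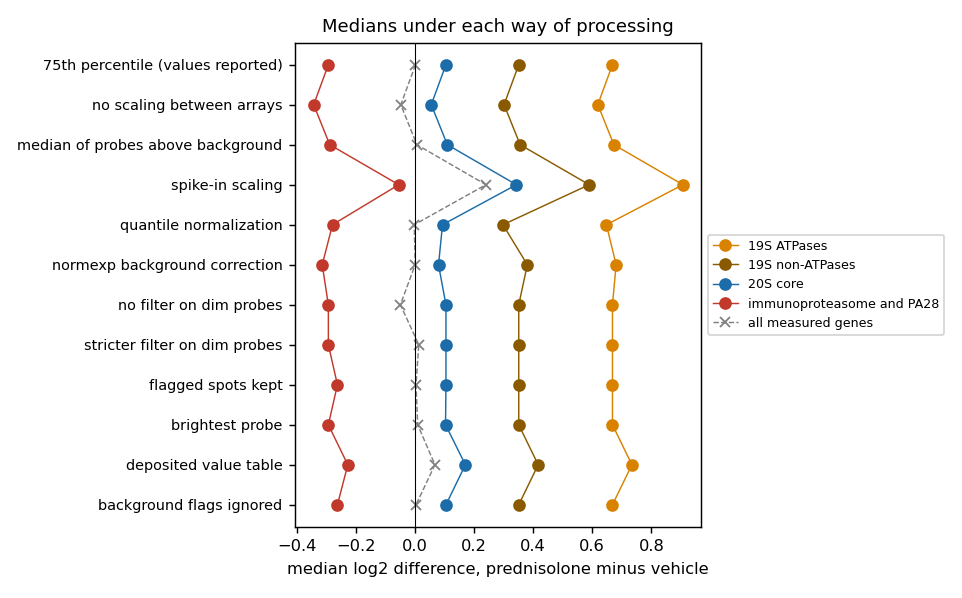
Median log2 difference (prednisolone minus vehicle) of 4 gene groups and of all measured genes (grey crosses) under the reported processing (top line) and 11 alternatives down the page. The order of the groups is the same on every line, and spike-in scaling moves all of them and the grey crosses to the right by 0.24.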

How the data were processed

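Total RNA (100 ng) was labelled with Cy3 and hybridized to 1-colour Agilent mouse arrays, 1 with prednisolone and 1 with vehicle, per the labels. The deposited scanner files hold spot intensity from Agilent Feature Extraction 12.0.3.1, background-subtracted and detrended within the array and not scaled between arrays, per the file headers. The deposited value table holds the same intensity times 1 constant per array (0.858 for prednisolone and 0.792 for vehicle, linear, not centred, with medians of 16.4 and 16.2), and neither labels nor headers say how these constants were chosen.

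Processed signals were divided by the 75th percentile of their array and compared as log2 values. Control spots and spots with any outlier flag on either array were left out, 5879 of 56605 probes, and probes well above background on both arrays were averaged per gene. Accessions were matched to RefSeq (GRCm38.p6), which named 33767 probes. The headers name build mm9, so coordinates are given for RefSeq promoters only. A gene above background on 1 array only has a bound ("at least"). All 7 flagged member probes carried background flags and none a flag on the spot itself. A difference of at least 2-fold was counted without a test, since 1 array per condition allows none, and the number of arrays limits the precision. The procedure was tested on data simulated from the vehicle array with known changes. That run checked the computation only, since it held no spread between cultures. Python 3.11.15, R 4.3.3 and limma 3.58.1 (normexp, offset 50) were used.

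The members and lists were chosen with earlier results of these data known. The 0.5 limit and the split into core and 19S genes were chosen after the values were seen. Named genes were Psmb5 to Psmb10, Psme1, members at least 2-fold apart, and the highest and lowest member of each role. For other lists they were genes at least 2-fold apart, or else the highest and lowest. Uchl5, Usp14, Pomp, Syvn1, Irf1, Tap2, B2m, H2-D1, the cell type markers given singly and the remaining members were named after their values were seen. Alternatives concerned scaling, background correction, filters, flags, the probe taken per gene and the deposited table, and ignoring background flags was added after the data were seen. Some genes of the other lists are counted but not reported here by name.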

Additional observations from a re-analysis of the deposited data

Results flagged for a closer look

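Spots whose local background carried an outlier flag were left out of the comparison although 6 of them, in 6 member genes, were well above background on both arrays. The Psmb10 spot is the sole one of its gene and gave 0.086. The spots of Psmd13 (0.57), Psmd14 (0.15) and Psmd2 (0.27) lay above 0, like the usable probes of these genes at 0.65, 0.35 and 0.23. That of Psma4 gave −0.054, against −0.021 from its usable probes, and that of Psmb6 gave −0.052, like its usable probe.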

How the results depend on the processing

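Under 10 of 11 alternatives none of the 42 members moved by more than its software error, and no group median moved by more than the median software error. The exception was spike-in scaling, which adds the same shift to every difference and moved all 42 members. It gave −0.055 for the immunoproteasome and PA28 median, 0.56 for the constitutive subunits, 0.34 for the 20S core, 0.91 for the 19S ATPases and 0.59 for the 19S non-ATPases, and 5 members at least 2-fold higher in place of 2. The sign turned for 7 members under it and for 2 with the deposited value table. The immunoproteasome minus constitutive offset was −0.62, taken against the median of 31 constitutive subunits (0.32). Those 31 join the 20S core, with a median of 0.10, and the 19S particle, with 0.63, so the offset is not one against the core alone. No scaling, median scaling, spike-in scaling and the deposited table differ by 1 constant per array only, so they cannot change this offset. Under the other alternatives it lay between −0.64 and −0.51. The number of all genes at least 2-fold apart was 900 higher and 1025 lower, 429 and 434 after normexp, 1460 and 1701 with no filter on dim probes, and 1427 and 670 under spike-in scaling. Which scaling is nearer to the RNA content of the cells was not tested. No paired analysis was possible because there was 1 array per condition. Replicates could not be left out for the same reason. The 4 immunoproteasome and PA28 genes on the array rest on 1 probe each.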
